A study of Homo sapiens with 8 samples.

Results

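This section concerns the DNA break regions of MycER-activated control cells that carried no counterpart after silencing of CDK12. When the break lists of all 4 OHT-treated libraries were merged (union, touching regions joined), chromosomes 1, 2, 4, 6, 7, 8, 10 and 14 held 3868 merged regions, of 6506 on all chromosomes. These 8 chromosomes are the ones on which each of the 4 lists holds regions: every list left out some whole chromosomes, and those left out differed even between replicates. Of the 3868 merged regions, 800 (20.7%) were touched by at least 1 bp in one or both shNT+OHT replicates and in neither shCDK12+OHT replicate, and they are called shNT+OHT only regions below. Only 64 of them (1.65% of the merged regions) were listed in both shNT+OHT replicates. The remainder of the merged regions were 551 listed in both groups and 2517 listed in shCDK12+OHT only. The listing itself chose the regions, so their presence in one group and absence from the other is a description and was not tested.

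The cells were U2OS, an osteosarcoma line with an aneuploid and rearranged genome, expressing MycER, a Myc protein fused to a hormone-binding domain and switched on by OHT. All groups received 1 µg/mL doxycycline to induce an shRNA, either non-targeting (shNT) or against CDK12 (shCDK12), and the groups compared here also received OHT at 300 nM over 40 h, which activates MycER. In all groups an arrest of 8 h in 100 ng/mL nocodazole preceded mitotic shake-off, and the cells were fixed in 2% paraformaldehyde 18 h after release. Neither clone nor separate cultures are named in the labels, so p-values measure the spread between libraries, which may be technical. There were 2 libraries per group. Another 4 libraries, from cells that received no OHT, were not used, and a background without MycER activation therefore cannot be given.

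As background, CDK12 is a kinase that phosphorylates the tail of RNA polymerase II and sustains the transcription of long genes, many DNA repair genes among them. Oncogenic Myc is known to raise transcription and to disturb replication, and breaks can arise where both machineries meet. sBLISS ligates barcoded adapters to the break ends of fixed cells, so that each end can be counted as a molecule, and regions dense in such ends are called BLISS+ regions. A list of regions is the outcome of a threshold, which means that a region absent from a list can still hold breaks below that threshold. The lists carry coordinates and no counts, and the depth of each library is unknown. No genome sequence or annotation of hg19, the build of the lists, was used here, and therefore the regions are given by position, counted from 1, without genes and without sequence.

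First, the contribution of each library was determined. On the 8 chromosomes, shNT+OHT replicate 1 listed 1024 regions and replicate 2 listed 628, against 2543 and 2049 in shCDK12+OHT replicates 1 and 2. In replicate 1, 604 regions (59.0%, 95% Wilson interval 55.9 to 62.0) were touched by no shCDK12+OHT region. In replicate 2 there were 321 such regions (51.1%, 47.2 to 55.0). The larger part of each control list was thus without a counterpart in the longer lists of silenced cells, although the interval of replicate 2 includes equal parts. After merging, 501 of the 800 shNT+OHT only regions came from replicate 1 alone, 235 from replicate 2 alone and 64 from both. All Wilson intervals given cover the counting error alone and take regions as independent, which neighbours are not.

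The shNT+OHT only regions were narrow. A single 2 kb bin, the smallest width a list can hold, made up 753 of the 800 (94.1%, 95% Wilson interval 92.3 to 95.6). Among regions listed in both groups the share was 211 of 551 (38.3%, 34.3 to 42.4), and among shCDK12+OHT only regions it was 1824 of 2517 (72.5%, 70.7 to 74.2). The mean width was 2.16 kb, against 5.26 kb for regions of both groups and 3.01 kb for shCDK12+OHT only regions. The widest shNT+OHT only region measured 8 kb, and the widest region of both groups 52 kb. Width is tied to the choice, since a wide region is touched more easily and merging can only widen it, and no test was made.

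The regions were spread unevenly over the chromosomes. Chromosome 7 had the highest proportion: 183 of its 470 merged regions (38.9%, 95% Wilson interval 34.6 to 43.4) were shNT+OHT only, against 20.7% over all 8 chromosomes. On chromosome 8 the number was 221 of 740 (29.9%, 26.7 to 33.3). Chromosome 4 held 82 of 384 (21.4%, 17.5 to 25.7) and chromosome 2 held 117 of 626 (18.7%, 15.8 to 21.9), both with intervals that include the overall share. Chromosome 10 (52 of 325, 95% Wilson interval 12.4 to 20.4%), chromosome 14 (71 of 457, 15.5%) and chromosome 6 (46 of 336, 13.7%) lay lower. Chromosome 1 had the lowest proportion, 28 of 530 (5.28%, 3.68 to 7.53), and the largest number of shCDK12+OHT only regions after chromosome 2 (448 against 457).

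Seen from the control lists, the order was partly different. Of all merged regions with a shNT+OHT listing, 77.9% (95% Wilson interval 72.1 to 82.7) were without a shCDK12+OHT region on chromosome 7, the highest value. Chromosome 2 came next with 69.2% (61.9 to 75.7). Chromosome 8 had 52.6% (47.8 to 57.3), below the 59.2% of the 8 chromosomes, because it also held 199 of the 551 regions listed in both groups. On chromosome 1 the value was 34.1% (24.8 to 44.9). Chromosomes 7 and 8 were therefore unlike: both were rich in shNT+OHT only regions, but chromosome 8 was also rich in regions of both groups (36.1% of them), whereas chromosome 7 held 9.44% of these.

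**Figure D1:**
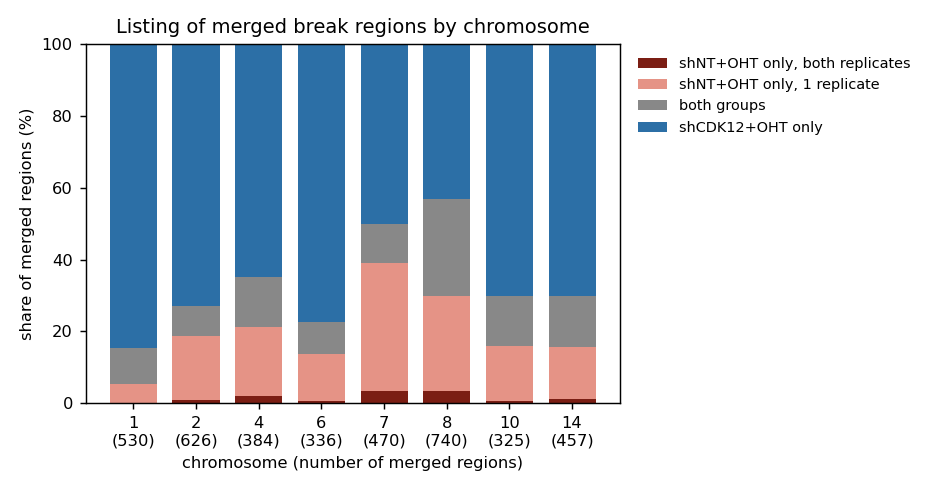
Each bar shows, for 1 chromosome (number of merged regions in brackets), the share in percent of merged regions listed in shNT+OHT only (dark red for both replicates, light red for 1 replicate), in both groups (grey) or in shCDK12+OHT only (blue). The red share is highest on chromosome 7 (38.9%) and lowest on chromosome 1 (5.28%).

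The chromosome distribution was next compared over libraries. Position takes no part in the listing rule, but it did take part in the pairing of chromosomes 7 and 8. For each library, the regions touched by no region of the other group were taken, and the share of them on chromosomes 7 and 8 was 53.0 and 48.6% in shNT+OHT replicates 1 and 2. In shCDK12+OHT replicates 1 and 2 it was 21.7 and 22.1%. The groups did not overlap: the means were 50.8% ± 3.10 (SD, n = 2) and 21.9% ± 0.250 (SD, n = 2), a difference of 28.9 percentage points, with a two-sided exact permutation p-value of 0.333. This is the smallest p-value that 2 against 2 libraries allow, so no difference between these groups could reach conventional significance. Each set was chosen by absence from the other group and was not rebuilt for the relabellings. The libraries are therefore not exchangeable in this test, and no conclusion is drawn from its p-value. Chromosomes 7 and 8 were set together with earlier results of these lists known. Regions listed in both groups, which are in neither set, also lay often on chromosome 8 (36.1%, against 27.6% of the shNT+OHT only regions). On chromosome 7 the shares were 9.44 and 22.9%. A high share on chromosome 8 was thus not particular to shNT+OHT only regions.

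By single chromosome, the share of these group-specific regions was higher in shNT+OHT on chromosome 7 (22.2 and 21.8%, against 9.01 and 9.58%) and on chromosome 8 (30.8 and 26.8%, against 12.7 and 12.5%). It was lower in shNT+OHT on chromosome 1, with 3.64 and 2.49% against 18.0 and 17.1%. The groups also did not overlap on chromosome 6 (5.30 and 5.30% against 10.1 and 11.8%), chromosome 10 (6.95 and 5.30% against 9.20 and 8.78%), chromosome 14 (9.44 and 9.03% against 13.1 and 11.2%) and chromosome 2 (11.4 and 17.8% against 18.3 and 17.9%), in all of which shNT+OHT was lower. The chromosome 2 difference was less than the spread between the shNT+OHT replicates. On chromosome 4 the groups overlapped, with 10.3 and 11.5% against 9.58 and 11.1%. The exact permutation p-value was 0.667 on chromosome 4 and 0.333 on the other 7 chromosomes, and adjustment cannot lower it. Here too the sets were not rebuilt for the relabellings, and no conclusion is drawn from these p-values.

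Next, it was asked whether absence from one shCDK12+OHT list foretold the listing in libraries that had no part in the choice. Regions of 1 shNT+OHT library were divided by their listing in 1 shCDK12+OHT library, and the other library of each group was then read. Of the 669 regions of shNT+OHT replicate 1 that were absent from shCDK12+OHT replicate 1, 78 (11.7%, 95% Wilson interval 9.44 to 14.3) were listed in shNT+OHT replicate 2. In shCDK12+OHT replicate 2, 65 of them (9.72%, 7.70 to 12.2) were listed. Such a region was thus found again in a second control library about as often as in the second silenced library, and in most cases in neither (547 of 669).

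The other 3 choices gave the same order. When replicate 1 was set against shCDK12+OHT replicate 2, 86 of 684 regions (12.6%, 95% Wilson interval 10.3 to 15.3) reappeared in the control library and 80 (11.7%, 9.50 to 14.3) in the silenced one. The margin was wider for replicate 2, whose held-out control library is the longer one. Set against shCDK12+OHT replicate 1, 80 of its 377 regions (21.2%, 17.4 to 25.6) reappeared in shNT+OHT replicate 1 and 56 (14.9%, 11.6 to 18.8) in shCDK12+OHT replicate 2. Set against shCDK12+OHT replicate 2, 93 of 388 (24.0%, 20.0 to 28.5) reappeared in the control library and 67 (17.3%, 13.8 to 21.3) in the silenced one. Intervals of the control and silenced libraries overlapped in all 4 choices, but both shares were read on the same regions, which separate intervals ignore. In each choice 57 regions were listed in the held-out control library alone. These touch the other control list and neither silenced list, whichever silenced library is chosen. The 4 counts are therefore 1 result, read on the same regions or on their counterparts in the other control list. In the held-out silenced library alone there were 44 and 51 regions chosen from replicate 1, and 33 and 31 chosen from replicate 2. The mean over the 4 choices was 17.4% in the held-out control library and 13.4% in the held-out silenced library. The control lists held 0.360 times as many regions as the silenced lists, and the part of list length in these shares was not tested.

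Regions that were listed in the shCDK12+OHT library used for the choice were found again far more often. Their share in the held-out control library was 46.5 to 69.7% over the 4 choices, and their share in the held-out silenced library was 73.3 to 80.9%. No interval of this class overlapped an interval of the absent class. In the reverse direction, regions of a shCDK12+OHT library absent from 1 shNT+OHT library reappeared in the other shCDK12+OHT library in 53.9 to 71.1% of cases, and in the other shNT+OHT library in 3.37 to 10.2%. The shNT+OHT only regions were therefore the less repeatable of the group-specific regions at the level of single bins, in lists that were also the shorter ones. Regions are not replicates of a condition, and no p-value was computed for these shares.

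**Figure D2:**
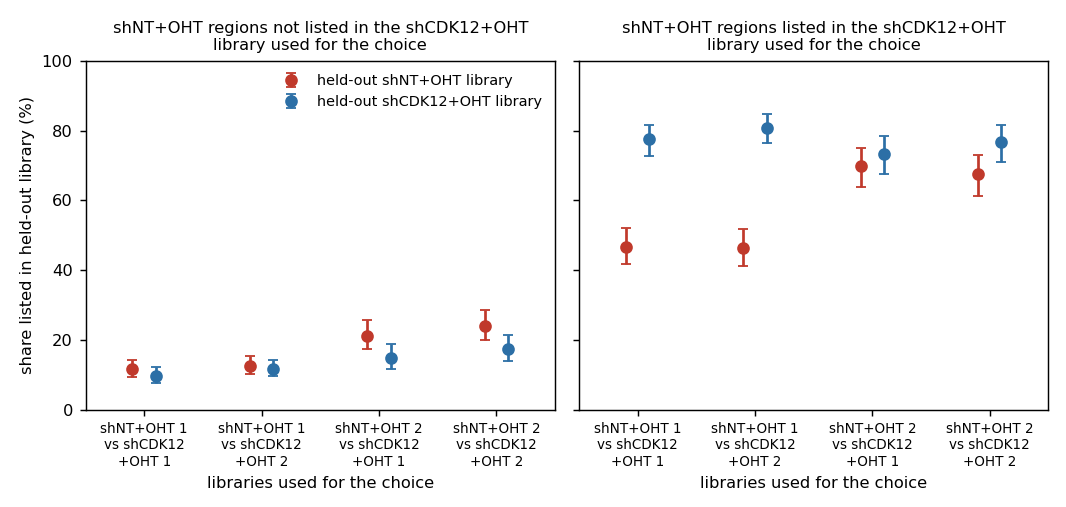
Share in percent of shNT+OHT regions that were listed in a held-out shNT+OHT library (red) or shCDK12+OHT library (blue), with 95% Wilson intervals, for regions not listed (left) or listed (right) in the shCDK12+OHT library used for the choice; the horizontal axis gives the libraries used for the choice. On the left all shares lie between 9.72 and 24.0%, and on the right between 46.5 and 80.9%.

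The distance from each shNT+OHT only region to the nearest shCDK12+OHT region was then measured between edges. The median was 104 kb, with quartiles of 28 and 266.5 kb and a range of 2 to 3198 kb. A shCDK12+OHT region lay within 10 kb of 101 regions (12.6%), within 100 kb of 394 (49.2%) and within 1 Mb of 777 (97.1%). The remaining 23 lay more than 1 Mb from any. The nearest shCDK12+OHT region was itself specific to shCDK12+OHT for 503 of the 800 (62.9%) and was listed in both groups for 296 (37.0%), with 1 tie. Distances were alike for each silenced library alone, with medians of 141 kb to replicate 1 and 140 kb to replicate 2.

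At the edge of the rule, 23 shNT+OHT only regions lay 2 kb, the width of 1 bin, from a shCDK12+OHT region. Just outside it, 39 of the 551 regions of both groups had control and silenced parts that touched end to end without sharing a bin. A further 418 shared exactly 1 bin, and 94 shared more. The line between the classes thus runs, for a part of the regions, along the edge of a 2 kb bin.

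The distance differed with chromosome. It was shortest on chromosome 8, with a median of 46 kb and 159 of 221 regions (71.9%) within 100 kb of a shCDK12+OHT region. Chromosome 14 followed with a median of 58 kb, and chromosome 1 with 81 kb. Medians were 112 kb on chromosome 4, 124 kb on chromosome 7, 172 kb on chromosome 10 and 205 kb on chromosome 6. Chromosome 2 had the longest, 240 kb, and only 36 of its 117 regions (30.8%) had a shCDK12+OHT region within 100 kb.

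The 64 regions of both shNT+OHT replicates lay nearer to shCDK12+OHT regions than those of 1 replicate, with a median of 58 kb (quartiles 19.5 and 171 kb) against 104 kb for replicate 1 alone and 114 kb for replicate 2 alone. Of the 64, 12 (18.8%) had a shCDK12+OHT region within 10 kb and 40 (62.5%) within 100 kb. For replicate 1 alone these numbers were 66 of 501 (13.2%) and 246 (49.1%), and for replicate 2 alone 23 of 235 (9.79%) and 108 (46.0%). Recurrence between control replicates thus went with closeness to the breaks of silenced cells. The difference was not tested, since regions share libraries and neighbourhoods. Chromosome 8, with the shortest median distance (46 kb), held 25 of the 64 regions and 221 of all 800 shNT+OHT only regions. The part of chromosome in the difference was not separated.

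**Figure D3:**
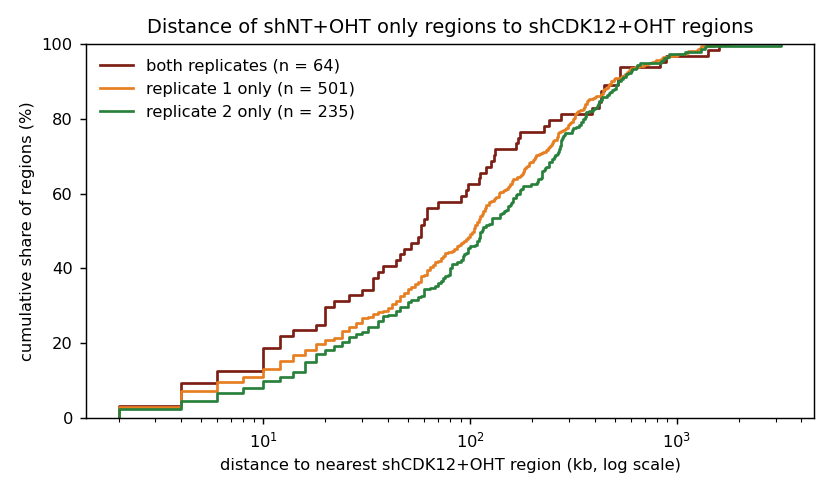
Cumulative share in percent of shNT+OHT only regions by distance in kb (log scale) to the nearest shCDK12+OHT region, drawn for regions of both replicates (dark red, n = 64), of replicate 1 alone (orange, n = 501) and of replicate 2 alone (green, n = 235). The curve of the regions of both replicates lies to the left, with a median of 58 kb against 104 and 114 kb.

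Regions of 1 control replicate were also measured against the other control replicate. The nearest region of replicate 2 lay at a median of 140 kb from regions of replicate 1 alone, and 208 of 501 (41.5%) had one within 100 kb. These values were close to the distance of the same regions to shCDK12+OHT replicate 1 (median 136 kb, 208 of 501 within 100 kb) and replicate 2 (median 138 kb, 208 of 501), although those lists were more than 3 times as long. For regions of replicate 2 alone, the nearest region of replicate 1 lay at a median of 130 kb, against 210 and 180 kb for shCDK12+OHT replicates 1 and 2. Within 100 kb the shares were 43.4% against 35.7 and 34.5%. At longer range the order turned, with 87.2% within 1 Mb of the other control list against 93.2 and 93.2% for the silenced lists. For regions of replicate 1 alone the shares within 1 Mb were 85.2% against 92.2 and 92.6%.

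The 64 regions found in both control replicates were examined individually. Both replicates listed exactly the same bins in 41 of them, shared some bins in 12 and touched without sharing a bin in 11. Chromosome 8 held 25 and chromosome 7 held 16, together 41 of the 64. Chromosome 4 held 8, chromosome 2 held 6, chromosome 14 held 5, and chromosomes 6 and 10 held 2 each. On chromosome 1 none of 28 shNT+OHT only regions was in both replicates, which allows a share of up to 10.7% (3 counts). As a share of all merged regions of a chromosome, regions of both replicates made up 3.40% on chromosome 7 and 3.38% on chromosome 8, against 1.65% over the 8 chromosomes.

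The widest of these regions lay on chromosome 7 (chr7:61906001-61914000), where replicate 1 listed 6 kb and replicate 2 listed the adjoining 2 kb. It was 34 kb from the nearest shCDK12+OHT region. Next came 6 regions of 6 kb. They lay at chr4:34584001-34590000 (2 kb in replicate 1, 6 kb in replicate 2), chr6:57540001-57546000 (6 and 2 kb), chr7:87872001-87878000 (2 and 6 kb), chr8:26924001-26930000 (2 and 6 kb), chr8:118228001-118234000 (6 and 2 kb) and chr8:140790001-140796000 (2 and 4 kb). Their distances to shCDK12+OHT ranged from 12 kb on chromosome 6 to 60 kb in the first of the chromosome 8 regions. None of the 7 widest regions was therefore far from a break region of silenced cells, and in none did both replicates list the full width.

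Among the 16 regions of 4 kb, 3 were named by the rule of width and order. At chr2:76470001-76474000, 4 kb were listed in replicate 1 and 2 kb in replicate 2, at 532 kb from shCDK12+OHT. At chr2:116612001-116616000 the same widths were listed, at 432 kb. At chr4:30438001-30442000, replicates 1 and 2 listed 2 kb each, and the nearest shCDK12+OHT region was 4 kb away. The chromosome 2 regions stood alone, whereas the chromosome 4 region lay in a dense run described below.

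The regions of both replicates that lay farthest from silenced-cell breaks were chr4:60346001-60348000 at 1596 kb and chr10:56498001-56500000 at 1412 kb. In each, both control replicates listed the same 2 kb bin. They were followed by chr8:78488001-78492000 at 890 kb, chr4:45378001-45380000 at 832 kb, and the chromosome 2 region near 76 Mb at 532 kb. At the other extreme, the bins at chr7:50126001-50128000 and chr7:79362001-79364000 lay 2 kb from a shCDK12+OHT region. The bins at chr2:117378001-117380000 and chr8:121888001-121890000 lay 4 kb from one. Absence from the silenced lists thus ranged from a missing neighbouring bin to a stretch of more than 1 Mb on either side without any listed region.

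Of the 736 regions of 1 replicate, 712 (96.7%) were single bins. The widest were 6 kb, among them chr1:118902001-118908000, chr4:34534001-34540000 and chr7:88920001-88926000, all in replicate 1 alone. The one farthest from any shCDK12+OHT region was chr4:190842001-190844000, near the end of the long arm, in replicate 2 alone and at 3198 kb. Next were chr2:77722001-77724000 at 1784 kb and chr10:7748001-7750000 at 1562 kb, both in replicate 1 alone.

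The shNT+OHT only regions occurred in runs. Of the 800, 402 (50.2%) had another within 100 kb, and linking such neighbours gave 125 runs of at least 2 regions beside 398 isolated regions. Both control replicates contributed to 85 of the 125 runs (68.0%). No shCDK12+OHT region lay inside 82 of the 125 (65.6%). The rule excludes shCDK12+OHT contact at the regions themselves, and 68 of the runs were pairs, so this share is partly set by the choice. No matching share was computed for the other classes. Runs of 5 or more numbered 22 and held 152 regions: 11 were on chromosome 8, 7 on chromosome 7, and 2 each on chromosomes 4 and 14. Chromosomes 1, 2, 6 and 10 had none. Of these 22 runs, 20 drew on both replicates and 6 held no shCDK12+OHT region. The share with a neighbour of the same class was 45.4% for regions of both groups and 47.0% for shCDK12+OHT only regions, classes of other sizes in which the share cannot be compared directly.

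The run with the most members lay on chromosome 7 (chr7:85642001-86018000, 376 kb). It held 10 shNT+OHT only regions, 8 from replicate 1 and 2 from replicate 2, and 1 region of both groups. A run on chromosome 4 (chr4:30390001-30672000, 282 kb) held 9, among 13 regions of both groups and 5 of shCDK12+OHT only, so that none was more than 12 kb from a silenced-cell region. A run on chromosome 8 (chr8:26746001-27134000, 388 kb) held 9, including 3 in both replicates, and 6 regions of both groups. The run of chromosome 4 was a dense block of breaks in all 4 libraries, with regions of both groups between the shNT+OHT only regions. The chromosome 7 run was filled mainly by shNT+OHT replicate 1. Inside it, shNT+OHT replicate 2 listed 2 regions, shCDK12+OHT replicate 2 listed 1 and shCDK12+OHT replicate 1 listed none.

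Of the 6 runs of 8 regions, the first by position lay at chr4:34426001-34688000, with 2 shCDK12+OHT only regions inside. The next lay at chr7:79110001-79468000, with 3 shCDK12+OHT only regions and 1 of both groups. Another, chr7:84994001-85200000, held no shCDK12+OHT region at all, and its members were 174 to 378 kb from the nearest. A run of 7 at chr7:85376001-85530000 also held none and lay 378 to 530 kb away. These last runs were singled out after their values were seen.

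**Figure D4:**
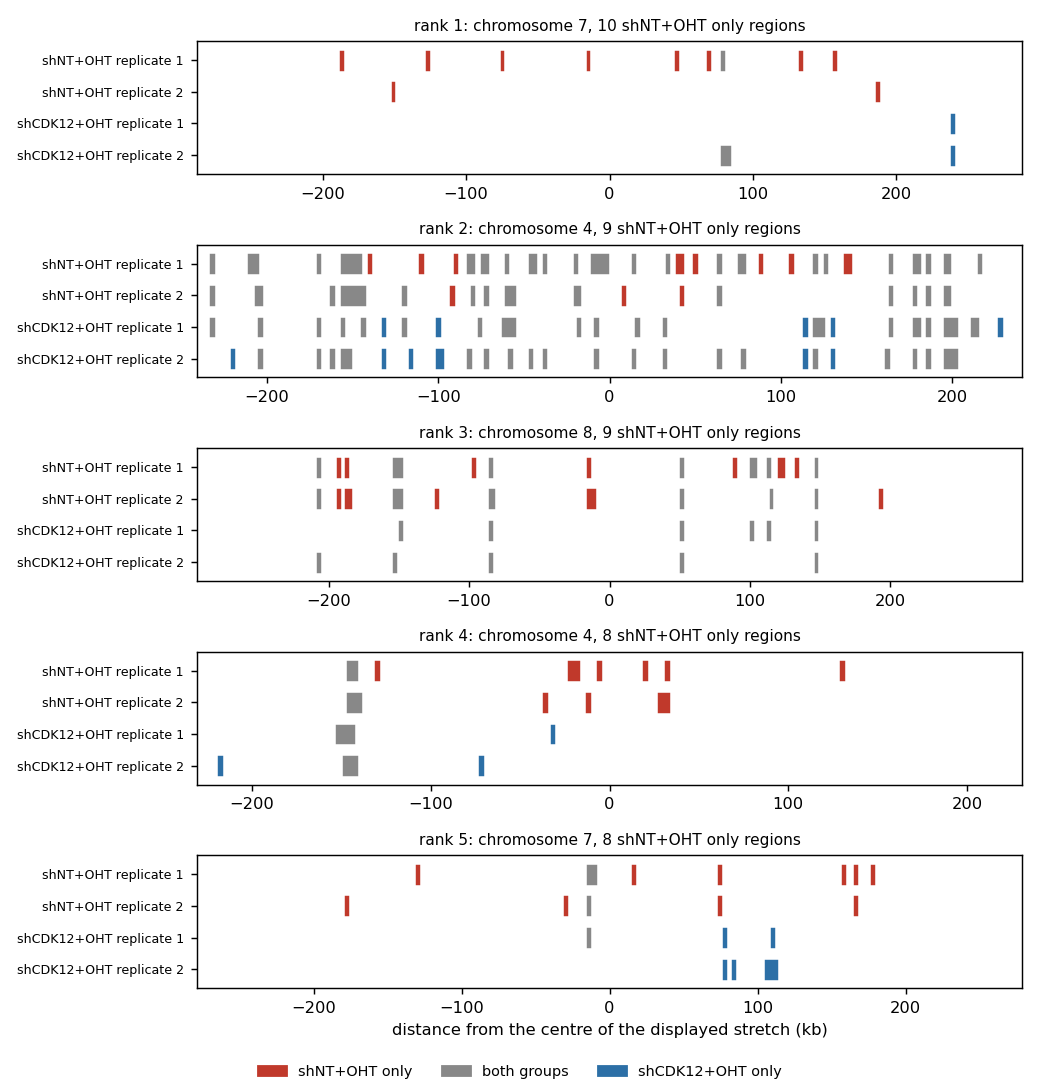
Listed regions of the 4 libraries (rows) in the 5 runs with the most shNT+OHT only regions, plotted as distance in kb from the centre of the displayed stretch, with 100 kb on either side of the run. Boxes are shNT+OHT only regions (red), regions of both groups (grey) and shCDK12+OHT only regions (blue). The rank 1 run on chromosome 7 is filled mainly in shNT+OHT replicate 1 and sparse in the other libraries, whereas the rank 2 run on chromosome 4 is filled in all 4.

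To look at larger domains, the 8 chromosomes were divided into windows of 5 Mb, of which 271 held a merged region. Of these, 136 windows held no shNT+OHT only region, and the 10 richest held 314 of the 800 (39.2%). The first 2 by number were adjacent, on the long arm of chromosome 7 from 85 to 90 Mb (57 regions) and from 80 to 85 Mb (43 regions). They were followed by chromosome 8 from 135 to 140 Mb (39), chromosome 4 from 30 to 35 Mb (32) and chromosome 8 from 120 to 125 Mb (30). A window with a shNT+OHT only region and no shCDK12+OHT region at all occurred in 1 case of 135. Since 270 of all 271 windows (99.6%) held a shCDK12+OHT region, this share is that of the background.

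Because the 2 control replicates listed mostly different bins, each could be used to choose windows and the other to read them. In the 10 windows with the most regions of replicate 1 alone lay 75 of the 235 regions of replicate 2 alone (31.9%, 95% Wilson interval 26.3 to 38.1). The same windows held 148 of the 2517 shCDK12+OHT only regions (5.88%, 5.03 to 6.87). Windows chosen by replicate 2 held 166 of the 501 regions of replicate 1 alone (33.1%, 29.2 to 37.4) and 112 of the shCDK12+OHT only regions (4.45%, 3.71 to 5.33). Regions of both groups were about as frequent as the control regions in the first set of windows (33.8%) and less so in the second (16.9%). These shares are a description: the regions of 1 replicate alone share no bin by definition, both kinds were chosen by absence from the same shCDK12+OHT lists, and the shCDK12+OHT only regions by absence from the control lists. Over the 271 windows, numbers of regions of replicate 1 alone and replicate 2 alone had a Pearson correlation of 0.861 (Spearman 0.646), given as a description, because both leave out the same silenced libraries and the windows differ in how many regions they can list.

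All regions of a library were then counted in the windows chosen by the other control replicate, whatever their class. In the windows chosen by replicate 1, replicate 2 listed 235 of its regions (37.4%), against 246 (9.67%) and 229 (11.2%) in shCDK12+OHT replicates 1 and 2. In the windows chosen by replicate 2, replicate 1 listed 263 regions (25.7%), against 147 (5.78%) and 141 (6.88%). In number of regions the control library was between the silenced ones in the first case and above them in the second. The silenced libraries took part in the choice of these windows, which were picked by regions that neither of them lists, and the order of the groups is therefore not an independent result.

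The 10 windows richest in shNT+OHT only regions fell into 2 kinds. As a share of each list, both control libraries exceeded both silenced libraries in 10 of 10. In numbers of regions this was so in 3 of 10: the 2 windows of chromosome 7 and the window of chromosome 8 from 135 to 140 Mb. In the latter, the shNT+OHT libraries listed 49 and 27 regions and the shCDK12+OHT libraries 21 and 15. On chromosome 8 from 25 to 30 Mb, by contrast, the numbers were nearly equal, with 82 and 55 against 79 and 55. On chromosome 4 from 30 to 35 Mb they were 54 and 32 against 33 and 41. In these windows silenced cells had as many listed regions as controls, but in part at other bins. These windows were ranked by the control listing itself, so the order of the groups in them was not tested.

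**Figure D5:**
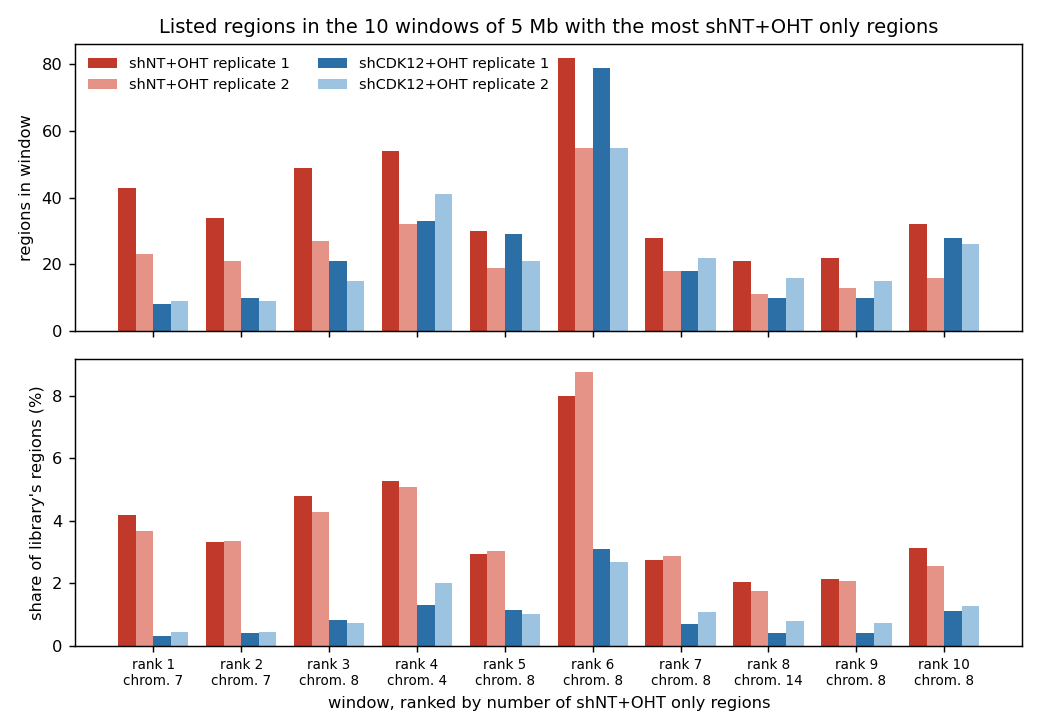
Number of listed regions (top) and share of each library's regions on the 8 chromosomes in percent (bottom) in the 10 windows of 5 Mb with the most shNT+OHT only regions, 1 bar per library. In ranks 1 to 3 both shNT+OHT libraries list more regions than both shCDK12+OHT libraries, and in the bottom panel this holds for all 10 windows.

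The 10 Mb of chromosome 7 from 80 to 90 Mb stood out and were examined further, a choice made after their values were seen. They held 100 shNT+OHT only regions, 12.5% of all 800 and 54.6% of those on chromosome 7, of which 62 were from replicate 1 alone, 30 from replicate 2 alone and 8 from both. Of the shCDK12+OHT only regions of chromosome 7, 16 of 235 (6.81%) lay there. In all, shNT+OHT replicates 1 and 2 listed 77 and 44 regions in this stretch and shCDK12+OHT replicates 1 and 2 listed 18 and 18. Means were 60.5 ± 23.3 (SD, n = 2) and 18.0 ± 0 (SD, n = 2). The control mean was 3.36 times the silenced mean, whereas over the 8 chromosomes it was 0.360 times. The exact permutation p-value, 0.333, is the smallest possible and, the stretch having been picked for its listing, supports nothing.

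As a share of each list the stretch held 7.52 and 7.01% of the control regions and 0.708 and 0.878% of those of silenced cells. Of its 100 shNT+OHT only regions, 92 were single bins. Their median distance to a shCDK12+OHT region was 140 kb and the largest 530 kb. In steps of 1 Mb, the most were found from 85 to 86 Mb, where the control libraries listed 20 and 6 regions and the silenced libraries 0 and 1. From 81 to 82 Mb there were 11 and 5 against 1 and 1. From 86 to 87 Mb the numbers were close, with 5 and 5 against 4 and 3, and from 83 to 84 Mb the groups overlapped, with 7 and 1 against 3 and 2. In each step of the stretch but that from 83 to 84 Mb both control libraries thus listed more regions than both silenced libraries. The same order held in the steps adjoining it on the side of the centromere, from 79 to 80 Mb (12 and 6 against 4 and 5) and from 78 to 79 Mb (3 and 2 against 1 and 1), and it turned from 77 to 78 Mb, where only the silenced libraries listed regions (5 and 6). On the other side, the silenced libraries listed more from 90 to 91 Mb (1 and 0 against 2 and 2) and from 91 to 92 Mb (1 and 0 against 3 and 3), and the groups overlapped from 92 to 93 Mb (6 and 1 against 2 and 4) and from 93 to 94 Mb (5 and 1 against 2 and 1). The limits of 80 and 90 Mb are those of the windows and mark no boundary in the lists.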

How the data were processed

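Double-strand breaks were mapped by sBLISS in U2OS MycER cells, and the 4 lists of BLISS+ regions from OHT-treated cells (2 shNT, 2 shCDK12) were used. Per the labels, coordinates are those of hg19. All 4 lists held regions past the chromosome ends of hg38 (1, 3, 32 and 25 regions), so the hg38 genome and annotation at hand were not used. The deposited values are the chromosome, start and end of each region, called by the authors per library. In each list all widths were multiples of 2 kb and the smallest gap was 4 kb, as 2 kb bins joined across gaps of up to 2 kb would give. A later study, which took the shNT+OHT libraries from a former publication, describes such calling for libraries of its own on hg38. It gives an aligner, removal of duplicates by molecular identifier, down-sampling and a fixed threshold on bin coverage. Whether the same settings were used for the hg19 lists is not stated, and depth is unknown. With a fixed threshold, deeper libraries would list more bins.

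Lists were merged and classified in Python 3.11.15 (NumPy 2.4.6) by at least 1 bp of contact. Library values were compared by two-sided exact permutation over 6 relabellings. The sets of group-specific regions were not rebuilt for each relabelling. The classification was tested on simulated data with planted classes. These were separate single bins of 2 kb, so touching, partly overlapping and wider regions were not covered. Regions named are the 10 widest, 5 farthest from and 5 nearest to shCDK12+OHT of those in both replicates, the 3 widest and 3 farthest of the others, and the 5 largest runs. Alternatives covered contact distance, minimum width, bins, chromosomes, leaving out libraries and the replicate number. Members, chromosomes and rules were chosen with earlier results of these data known. GC content and gene overlap, which had been planned, were not computed, as they need hg19.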

Additional observations from a re-analysis of the deposited data

How the results depend on the processing

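Over 9 results and 70 alternatives (14 of them chosen after the data had been seen), 49 values were classed as unchanged and 21 as moved. Counts had to stay within 1.5 times, and shares and distances within the spread between replicates. Some values could only come out unchanged. Held-out shares chosen from 1 control replicate alone were set against their own mean. The difference on chromosomes 7 and 8 in the block by replicate number equals the main value by arithmetic. The window share had to stay within a margin taken from its Wilson interval. For the difference on chromosomes 7 and 8 only the sign was checked, whatever the size, and it did not change. When regions under 4 kb were dropped from all 4 lists before merging, 84 regions were shNT+OHT only (6 in both replicates). Their median distance to the remaining shCDK12+OHT regions was 87 kb, and 64.3% lay on chromosomes 7 and 8. The difference of libraries there was 44.1 points, against 28.9. These 84 are not a subset of the 800, of which 31, 15 and 1 measured 4, 6 and 8 kb. Dropping narrow shCDK12+OHT regions also let in regions that these had touched. Among regions of both replicates alone, the median distance was 58 kb, 64.1% lay on chromosomes 7 and 8 and 12.5% had another of these within 100 kb. Neighbours within 50 and 500 kb gave 35.8 and 80.8%. Leaving out 1 library gave 301 to 927 shNT+OHT only regions (301 without shNT+OHT replicate 1), 90 to 95 in both replicates, median distances of 98 to 136 kb, 48.2 to 53.5% on chromosomes 7 and 8, neighbour shares of 27.2 (without shNT+OHT replicate 1) to 56.3%, differences on chromosomes 7 and 8 of 25.3 to 30.2 points and window shares of 31.9 to 33.5%. The share of regions of replicate 2 alone in windows chosen by replicate 1 was 15.7 and 43.4% with windows of 2 and 10 Mb, and 22.1 and 42.6% with 5 and 20 windows, which cover less or more of the genome.

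Same-numbered replicates did not deviate together in the lists (correlation -0.139 over 5 Mb windows, 0.00527 over 2 Mb, -0.0741 over 10 Mb). The labels do not say whether they shared a culture or a preparation, and these correlations cannot tell. In the block by replicate number, 502.5 shNT+OHT only regions remained per pair (508.5 with crossed numbers), fewer because each pair holds 1 control library. The median distance was 118 kb. The difference on chromosomes 7 and 8 was 28.9 points (exact p-value 0.5, the smallest for 2 pairs). This difference equals the main value by arithmetic, so the block could not move it. The block could not be applied to regions of both replicates, nor leaving out a library to the held-out shares. GC content and gene overlap were not run. Without chromosome 7 from 80 to 90 Mb the difference on chromosomes 7 and 8 was 22.6 points. Unknown depth limits every comparison of numbers of regions.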
